A study of Mus musculus with 10 samples.

Results

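The Aurora kinases, the Polo-like kinases and the spindle assembly checkpoint genes were followed through mouse spermatogenesis in 10 genes, Aurka, Aurkb, Aurkc, Plk1, Plk4, Bub1, Bub1b, Mad2l1, Ttk and Incenp. They were chosen by name, with earlier results of these data known. All 10 had a row both among the 28125 genes of the scRNA-seq matrix and among the 30670 genes of the scATAC-seq matrix. Nuclei of whole testes were profiled for RNA and accessible chromatin at the same time on the BD Rhapsody system, with 1 library per condition. The wild-type libraries came from C57BL/6J mice at 11, 17 and 25 days postpartum (dpp), and the other libraries from Cre/+ control and Nfya-CKO mice at 8 weeks of age. In Nfya-CKO mice, a Cre expressed from the Stra8 locus removes a floxed part of Nfya, the DNA-binding subunit of NF-Y, in germ cells only, so that somatic cells keep the gene. Stra8 is active in spermatogonia and pL, and Cre/+ mice, which carry the Cre knock-in, served as the control.

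Values were deposited as 1 mean per gene for each of 13 populations, pooled over the libraries. Of these, 9 are germ cell populations of the wild-type and Cre/+ libraries, with 9 Nfya-CKO cells among them (1 in undiff. SpG, 4 in eL/L/Z and 4 in D): undifferentiated and differentiating spermatogonia (undiff. SpG and diff. SpG), preleptotene spermatocytes (pL), overlapping groups of leptotene, zygotene and early pachytene spermatocytes (eL/L/Z, then L/Z/eP), mid to late pachytene (mP/lP) and diplotene (D) spermatocytes, and round and elongating spermatids (RS and ES). The others are spermatogonia of the Nfya-CKO library (SpG Nfya-CKO), Sertoli cells, other somatic cells and a population named unknown. An RNA value is the mean number of UMIs per 10000 UMIs of a cell, and the range in parentheses behind a value or a ratio is a 95% interval that covers counting error only. There is no replicate check on any value, no test could be made, and fold differences were counted by size alone.

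Stage, age and library cannot be told apart in these columns. Undiff. SpG held 1292 cells, of which 646 came from 11 dpp and 102 from Cre/+ mice, while Cre/+ mice gave 783 of the 927 cells of diff. SpG and 1190 of the 1195 cells of ES. The median depth of a population ran from 1525 UMIs per cell in other somatic cells to 18361 in SpG Nfya-CKO. The libraries also shared cell barcodes: 5037 of 39716 distinct barcodes occurred in more than 1 library, among them 3820 in both 8-week libraries and 621 to 853 in each pair of wild-type libraries, and 74.2% of the Nfya-CKO cells carried a barcode that another library held. Of the 491 cells of SpG Nfya-CKO, 176 shared their barcode with a Cre/+ cell, always with more UMIs in the Nfya-CKO library (median 21378 against 2272), and 144 of those Cre/+ cells had been placed in diff. SpG. In all, 49.1% of the cells of diff. SpG, 59.7% of ES, 32.5% of undiff. SpG and 19.0% of pL had a barcode seen in another library. Values without these cells could not be computed from the pooled columns, and the part of shared barcodes in any value below was not tested.

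Of 34 markers listed for the germ cell stages and Sertoli cells, 21 were highest in the population their list names. The markers of elongating spermatids did so in 4 of 4 genes, those of leptotene and zygotene, pachytene, round spermatids and Sertoli cells in 3 of 4 each, and those of diplotene in 2 of 3. Fewer did in the early germ cells. Zbtb16 alone of 4 was highest in undiff. SpG, with Gfra1 and Etv5 highest in SpG Nfya-CKO and Id4 in mP/lP. Dmrtb1 alone of 4 was highest in diff. SpG, with Kit and Sohlh2 highest in pL and Sohlh1 in SpG Nfya-CKO, and Stra8 alone of 3 was highest in pL. Clu, the fourth Sertoli marker, and all 4 Leydig markers were highest in other somatic cells. Diff. SpG also held spermatid RNA, with a summed level of the 4 elongating spermatid markers of 9.88 per 10000 against 0.511 in undiff. SpG and 0.0149 in pL, and pachytene RNA, with a sum of the 4 pachytene markers of 13.1 against 3.6 in undiff. SpG, 2.81 in pL and 48.5 in mP/lP. None of these 8 markers was at 0 in diff. SpG, and the part of this RNA in the values of diff. SpG was not tested. SpG Nfya-CKO held Leydig cell RNA, with a sum over 4 Leydig markers of 48.4 per 10000 against 0.172 in undiff. SpG and none of the 4 at 0. Its sum over 4 Sertoli markers was 24.3 against 3.67, of which Clu made up 22.8, while Sox9 was at 0.82 against 0.531, Wt1 at 0.701 against 0.6 and Amh at 0.0116 against 0.0431. Of the 4 markers of undifferentiated spermatogonia, Gfra1 (1.2 against 1.08) and Etv5 (1.11 against 0.76) were higher than in undiff. SpG, and Zbtb16 (4.15 against 8.74) and Id4 (0.29 against 0.682) lower, with a sum of 6.75 against 11.3. The level of Nfya itself, counted over the whole gene, was 1.1 (1.03 to 1.18) in SpG Nfya-CKO and 0.456 (0.412 to 0.502) in undiff. SpG. This count does not resolve the deleted exons and so does not check the genotype, and the cells are called here by the label of their library.

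Chromosome segregation is driven by a small set of mitotic kinases. Aurora A (Aurka) acts at centrosomes and spindle poles, while Aurora B (Aurkb), or in meiosis its close paralogue Aurora C (Aurkc), joins the scaffold INCENP (Incenp) in the chromosomal passenger complex, which corrects faulty attachments of kinetochores. PLK1 (Plk1) works at centrosomes and kinetochores, and PLK4 (Plk4) starts centriole duplication. MPS1 (Ttk), BUB1 (Bub1), BUBR1 (Bub1b) and MAD2 (Mad2l1) form the spindle checkpoint, which holds anaphase until all chromosomes are attached, and spermatocytes use the same machinery in the meiotic divisions.

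Because the deleted gene encodes the subunit of NF-Y that recognises CCAAT, the promoters were searched for the letters CCAAT, and also for the cell cycle homology region (CHR) letters TTTGAA or TTCGAA, each on both strands. The windows ran from 250 bases before to 50 bases after a RefSeq start site (build GRCm38.p6), and 8 of the 10 genes had an entry, Aurkb and Incenp having none. That start site is the outer end of the gene as given below for Plk1, Plk4, Bub1 and Mad2l1, and lies inside it by 316 bases in Aurka, 38 in Aurkc, 38 in Ttk and 9 in Bub1b. CCAAT was found in 6 of these 8 windows and in 37.4% of all 32851 windows of this length, and a CHR match in 5 of 8 and in 19.2%. The 5 windows that held both are shown, in the direction of the gene, with the matches to either motif in capitals.
Aurka (chr2:172370521-172370820, - strand): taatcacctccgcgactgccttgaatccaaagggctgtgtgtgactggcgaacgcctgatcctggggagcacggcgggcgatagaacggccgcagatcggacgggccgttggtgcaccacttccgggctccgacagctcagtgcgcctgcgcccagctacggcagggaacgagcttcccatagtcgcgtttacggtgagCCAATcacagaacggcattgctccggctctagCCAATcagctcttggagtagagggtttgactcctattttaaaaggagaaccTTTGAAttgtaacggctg
Plk1 (chr7:122159185-122159484, + strand): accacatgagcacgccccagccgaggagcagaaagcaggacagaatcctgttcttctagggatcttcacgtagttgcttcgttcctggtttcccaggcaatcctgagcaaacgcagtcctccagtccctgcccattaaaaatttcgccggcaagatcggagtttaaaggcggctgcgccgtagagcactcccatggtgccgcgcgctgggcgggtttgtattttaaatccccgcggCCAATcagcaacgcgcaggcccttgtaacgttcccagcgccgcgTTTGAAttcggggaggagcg
Bub1 (chr2:127831810-127832109, - strand): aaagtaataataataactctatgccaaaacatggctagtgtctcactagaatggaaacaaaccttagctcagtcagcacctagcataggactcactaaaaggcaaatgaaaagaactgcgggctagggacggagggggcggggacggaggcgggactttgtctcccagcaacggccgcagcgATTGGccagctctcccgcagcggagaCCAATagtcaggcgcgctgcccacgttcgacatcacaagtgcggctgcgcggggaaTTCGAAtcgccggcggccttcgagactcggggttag
Bub1b (chr2:118597961-118598260, + strand): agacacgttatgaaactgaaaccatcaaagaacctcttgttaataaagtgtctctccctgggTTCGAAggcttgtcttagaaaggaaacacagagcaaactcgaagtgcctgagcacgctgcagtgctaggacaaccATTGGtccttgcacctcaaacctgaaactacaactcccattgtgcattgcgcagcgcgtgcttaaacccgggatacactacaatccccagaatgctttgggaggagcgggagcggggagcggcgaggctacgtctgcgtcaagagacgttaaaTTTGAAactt
Ttk (chr9:83834439-83834738, + strand): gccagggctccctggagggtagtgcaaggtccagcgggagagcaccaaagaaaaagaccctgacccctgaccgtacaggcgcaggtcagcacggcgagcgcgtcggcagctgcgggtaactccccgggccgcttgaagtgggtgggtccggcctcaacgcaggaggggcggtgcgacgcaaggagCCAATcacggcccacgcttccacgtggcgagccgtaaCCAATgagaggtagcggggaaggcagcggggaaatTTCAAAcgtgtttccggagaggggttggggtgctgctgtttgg

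Positions give the first matching base in the printed direction, negative before the start site of the window and counted from 1 at it. In Aurka, CCAAT lay at -51 and -19 and the CHR match at 33. Plk1 had the same order, with CCAAT at -14 and TTTGAA at 31. Ttk had 2 CCAAT matches, at -65 and -28, and the CHR letters at 8 on the opposite strand. Bub1 held CCAAT on the opposite strand at -68 and on the same strand at -42, with TTCGAA at 15. Bub1b had 1 CCAAT, on the opposite strand at -113, and CHR matches at -188 and 41. Aurkc held only a CCAAT, on the opposite strand at 25, and neither motif occurred in the windows of Plk4 and Mad2l1. A match describes letters only, and no binding data enter here.

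Most of the 10 genes were at their lowest in spermatids, but their peaks differed. Aurkb, Incenp and Plk4 were highest in pL, Plk1, Ttk and Bub1b in diff. SpG, Mad2l1 in undiff. SpG, Bub1 in eL/L/Z, and Aurka and Aurkc in mP/lP. The count of 3 of 10 in pL stands beside 17.8% of the 15250 genes tested, those whose mean over the populations reached 0.05 per 10000, as it did for all 10 genes. For diff. SpG, 3 of 10 stands beside 5.66%, and for mP/lP 2 of 10 beside 11.3%. Peaks were taken by the highest value alone. Those of Plk1 and Ttk were not apart from pL beyond counting error, that of Aurkc not from D, and that of Bub1 not from L/Z/eP. In 7 of the 10 genes the lowest germ cell population was RS or ES, beside 42.2% of all genes tested.

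**Figure D1:**
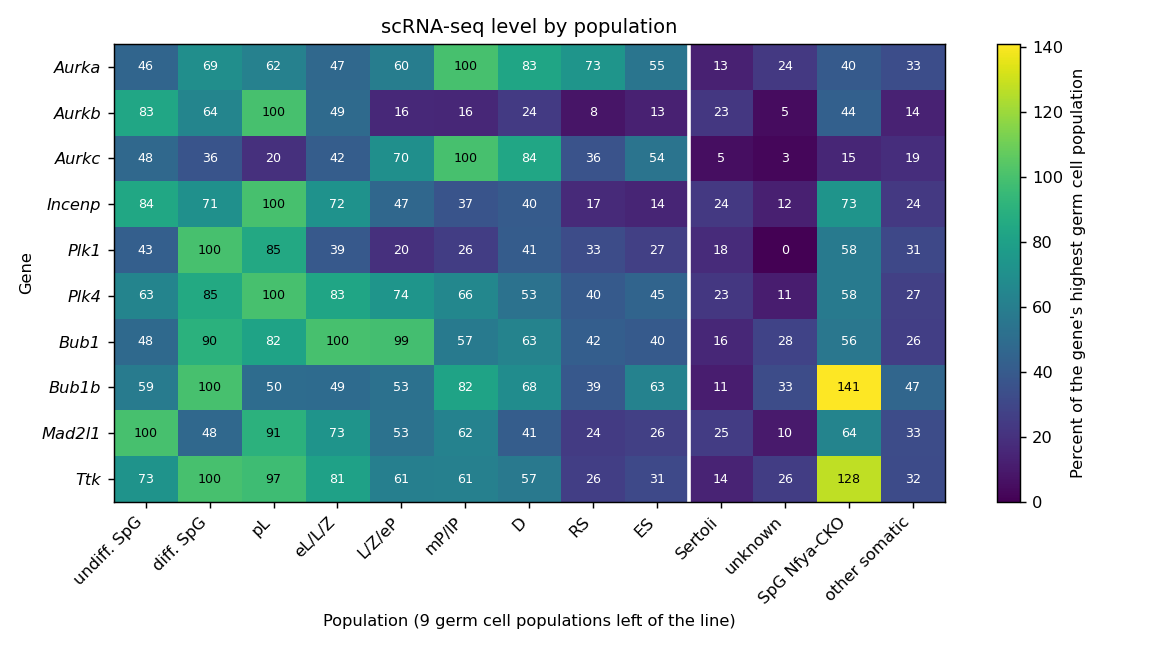
Mean scRNA-seq level of each gene (rows) in 13 populations (columns), as a percentage of that gene's highest germ cell population, printed in each cell and shown by colour. The bright blocks move from SpG and pL for most genes to mP/lP for Aurka and Aurkc, and Bub1b and Ttk exceed 100% in SpG Nfya-CKO.

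The Aurora kinases fell into opposite patterns. Aurkb (chr11:69045624-69051664), the catalytic subunit of the passenger complex in mitosis, was a gene of spermatogonia and pL. Its level was 0.366 in undiff. SpG, 0.283 in diff. SpG, 0.44 in pL, 0.216 in eL/L/Z, 0.0725 in L/Z/eP, 0.0701 in mP/lP, 0.107 in D, 0.034 in RS and 0.0566 in ES. It was therefore lower by 6.07-fold (4.84 to 7.68) in L/Z/eP than in pL, and it spanned 13-fold (95% counting interval 9.64 to 17.8) between pL and RS, the widest range among the 10 genes. From pL down to L/Z/eP, all neighbours in the order of levels differed beyond counting error, whereas the steps from L/Z/eP to mP/lP, to ES and to RS each had an interval that held 1. Across these steps, L/Z/eP (0.0583 to 0.0892) and mP/lP (0.0609 to 0.0802) nevertheless lay above RS (0.0251 to 0.045), with intervals that do not overlap.

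Aurkc (chr7:6995347-7003091), the Aurora kinase of meiotic cells, ran the other way. Aurkc was at 0.062 in undiff. SpG, 0.0474 in diff. SpG, 0.0257 in pL, 0.0541 in eL/L/Z, 0.0916 in L/Z/eP, 0.13 in mP/lP, 0.108 in D, 0.0467 in RS and 0.0702 in ES. It was lowest in pL, where Aurkb was highest, and it was 3.56-fold (2.38 to 5.46) higher in L/Z/eP than in pL. The range between mP/lP and pL was 5.05-fold (95% counting interval 3.5 to 7.51), yet only RS and pL of the 8 pairs of neighbours in its order were apart beyond counting error. Aurkb and Aurkc are similar in sequence, and since only uniquely mapped reads were kept, reads that fit both do not enter either value.

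Aurka (chr2:172356190-172370886), the spindle pole kinase, was highest in mP/lP. The level of Aurka was 0.264 in undiff. SpG, 0.397 in diff. SpG, 0.354 in pL, 0.271 in eL/L/Z, 0.343 in L/Z/eP, 0.572 in mP/lP, 0.474 in D, 0.42 in RS and 0.313 in ES. It was higher in mP/lP than in L/Z/eP by 1.67-fold (1.5 to 1.86) and than in D by 1.21-fold (1.09 to 1.34). All other neighbours in its order, from D down to undiff. SpG, were not apart beyond counting error, among them diff. SpG and pL, and the whole range was 2.17-fold (95% counting interval 1.89 to 2.49). RS kept 73.5% of the peak level. The first bases of Aurka overlap Cstf1 over 242 bases, and reads in this overlap may be shared.

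Incenp (chr19:9872295-9899489), the scaffold that activates Aurora B and C, was highest in pL, as was Aurkb, whereas Aurkc was lowest there. Levels were 1.62 in undiff. SpG, 1.36 in diff. SpG, 1.92 in pL, 1.38 in eL/L/Z, 0.906 in L/Z/eP, 0.709 in mP/lP, 0.779 in D, 0.324 in RS and 0.279 in ES. The values were lower from pL to spermatids except for a slight rise from mP/lP to D. In the order of its levels, 6 of 8 pairs of neighbours were apart beyond counting error. Incenp was lower by 2.12-fold (1.98 to 2.28) in L/Z/eP than in pL, and by 2.4-fold (2.14 to 2.7) in RS than in D. Between pL and ES the range was 6.9-fold (95% counting interval 5.44 to 8.89).

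**Figure D2:**
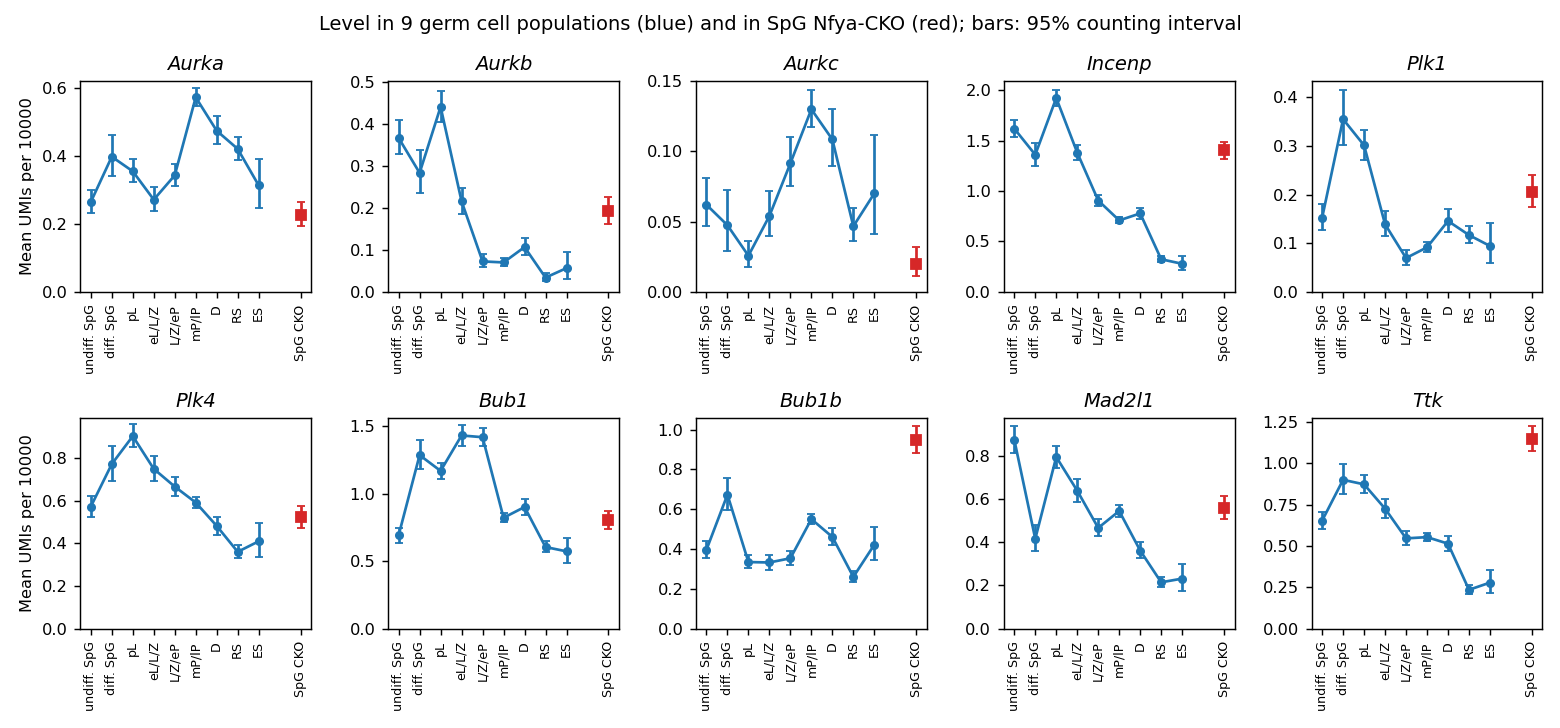
Mean UMIs per 10000 of each gene in the 9 germ cell populations (blue, in developmental order) and in SpG Nfya-CKO (red square), with the 95% counting interval as bars and a linear axis from 0 in each panel. Aurkb and Incenp descend from pL while Aurka and Aurkc reach their highest level in mP/lP, and the red squares of Bub1b and Ttk lie above every blue point.

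Both Polo-like kinases were high at meiotic entry. Plk1 (chr7:122159435-122169884), which drives centrosome maturation and mitotic entry, peaked in diff. SpG and pL. Plk1 stood at 0.152 in undiff. SpG, 0.355 in diff. SpG, 0.301 in pL, 0.139 in eL/L/Z, 0.0695 in L/Z/eP, 0.0915 in mP/lP, 0.146 in D, 0.117 in RS and 0.0943 in ES. The ratio of diff. SpG to pL was 1.18-fold (0.97 to 1.43), which holds 1, and pL was 1.98-fold (1.62 to 2.43) above undiff. SpG. The lowest value, in L/Z/eP, was lower than that of pL by 4.33-fold (3.42 to 5.54), and D was again 2.1-fold (1.6 to 2.76) above L/Z/eP. In the unknown population, which held 99 cells, Plk1 was not detected, which allows a level of up to 0.131 by a limit of 3 UMIs, and up to 0.161 by the upper end of the 95% interval.

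Plk4 (chr3:40799951-40816883), the kinase of centriole duplication, was highest in pL and lower in each later population up to RS. Its values were 0.573 in undiff. SpG, 0.773 in diff. SpG, 0.904 in pL, 0.75 in eL/L/Z, 0.667 in L/Z/eP, 0.592 in mP/lP, 0.482 in D, 0.361 in RS and 0.41 in ES. The level in pL was 1.58-fold (1.42 to 1.76) above that in undiff. SpG, and the range from pL to RS was 2.51-fold (95% counting interval 2.25 to 2.79). Plk4 thus kept 39.9% of its peak in RS, against 7.72% for Aurkb.

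The 4 checkpoint genes did not share a peak. Ttk (chr9:83834651-83872390), the kinase that recruits the other checkpoint proteins to kinetochores, was high in diff. SpG and pL. Ttk was at 0.653 in undiff. SpG, 0.901 in diff. SpG, 0.873 in pL, 0.726 in eL/L/Z, 0.546 in L/Z/eP, 0.554 in mP/lP, 0.514 in D, 0.235 in RS and 0.279 in ES. The ratio of diff. SpG to pL was 1.03-fold (0.917 to 1.16), and neither this pair nor the neighbours mP/lP, L/Z/eP and D were apart beyond counting error. Ttk was lower by 1.6-fold (1.45 to 1.76) in L/Z/eP than in pL, and lower again by 2.19-fold (1.91 to 2.52) in RS than in D.

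Bub1 (chr2:127800197-127831859), a kinase of the kinetochore that also protects sister cohesion through shugoshin, was highest in the early prophase populations. For Bub1 the level was 0.692 in undiff. SpG, 1.29 in diff. SpG, 1.17 in pL, 1.43 in eL/L/Z, 1.42 in L/Z/eP, 0.822 in mP/lP, 0.902 in D, 0.605 in RS and 0.573 in ES. It was 1.69-fold (1.54 to 1.86) higher in pL than in undiff. SpG, and the ratio of eL/L/Z to L/Z/eP was 1.01-fold (0.938 to 1.08), not apart from 1. Its value in mP/lP was 1.73-fold (1.62 to 1.84) below that of L/Z/eP. The range to ES was 2.5-fold (95% counting interval 2.1 to 2.99).

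Bub1b (chr2:118598202-118641592), whose product BUBR1 is part of the inhibitor of the anaphase-promoting complex, was highest in diff. SpG, a column that also held pachytene RNA, and next in mP/lP. Bub1b was measured at 0.396 in undiff. SpG, 0.673 in diff. SpG, 0.334 in pL, 0.332 in eL/L/Z, 0.353 in L/Z/eP, 0.55 in mP/lP, 0.46 in D, 0.26 in RS and 0.421 in ES. It was 1.7-fold (1.45 to 1.99) higher in diff. SpG than in undiff. SpG and 1.56-fold (1.4 to 1.73) higher in mP/lP than in L/Z/eP. Undiff. SpG, L/Z/eP, pL and eL/L/Z followed each other in the order of levels with no neighbours apart beyond counting error, although pL was lower than undiff. SpG by 1.19-fold (1.02 to 1.37).

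Mad2l1 (chr6:66535221-66541107), which encodes the checkpoint protein that binds CDC20, was lowest in spermatids and had a dip in diff. SpG. The values of Mad2l1 were 0.876 in undiff. SpG, 0.416 in diff. SpG, 0.796 in pL, 0.64 in eL/L/Z, 0.467 in L/Z/eP, 0.546 in mP/lP, 0.362 in D, 0.215 in RS and 0.232 in ES. Plk1, Ttk, Bub1, Bub1b, Aurka and Plk4 were higher in diff. SpG than in undiff. SpG beyond counting error. Mad2l1 was lower there by 2.1-fold (1.79 to 2.49). Lower too were Aurkb, by 1.29-fold (1.05 to 1.6), and Incenp, by 1.19-fold (1.08 to 1.31). The proliferation marker Ccnb1 was likewise 0.447 (0.386 to 0.514) in diff. SpG against 0.95 (0.886 to 1.02) in undiff. SpG, whereas Mki67 was at 4.32 against 1.79. Between undiff. SpG and RS, Mad2l1 differed by 4.08-fold (95% counting interval 3.57 to 4.67).

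Over all 10 genes, 80 pairs of germ cell populations were neighbours in a gene's order of levels. Of these, 45 had a ratio whose interval held 1, so the order of close levels is mostly not resolved. Every gene was lower in Sertoli cells than in undiff. SpG, by 2.45-fold to 9.54-fold, with all 10 intervals above 1, and 69% of all genes tested were lower there. Sertoli cells held 0.124 of Ttk, 0.0768 of Bub1b and 0.0065 of Aurkc. Other somatic cells were also below undiff. SpG in all 10 genes, by 1.26-fold for Bub1b to 6.05-fold for Aurkb, beside 49.8% of all genes. In other somatic cells Bub1 was at 0.373, Bub1b at 0.314 and Ttk at 0.291, and 70.1% of these cells had a shared barcode.

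Entry into meiosis was compared as pL against undiff. SpG. Ratios were taken as log2 of the value plus 0.1, which understates differences of low genes. The level of 7 of the 10 genes was higher in pL, beside 44.4% of all genes, and that of Aurkc, Bub1b and Mad2l1 lower, with each interval of the plain ratio on 1 side of 1, although that of Mad2l1 ends just below 1. With 0.1 added, none was 2-fold apart, beside 2.42% of all genes tested that were at least 2-fold higher and 6.19% at least 2-fold lower. The median log2 ratio was 0.28 for the 10 genes and -0.05 for all genes. On that scale the largest were Bub1, at 0.68, and Plk1, at 0.67. By the plain ratio, Aurkc was lower in pL by 2.41-fold (1.53 to 3.86), and Plk1 was 1.98-fold (1.62 to 2.43) and Bub1 1.69-fold (1.54 to 1.86) higher.

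Genes of the same pathways were taken from a list of 68, covering partners of the passenger complex, of the Polo kinases and of the checkpoint, the kinetochore core and the anaphase-promoting complex with securin and separase. Of the 67 that passed the filter, 4 were at least 2-fold higher in pL than in undiff. SpG and 0 lower, with a median log2 ratio of 0.18. Sass6, the cartwheel protein of new centrioles, was at 0.862 in pL against 0.296 in undiff. SpG, a ratio of 2.91 (2.54 to 3.35). Spc24, of the NDC80 complex that binds microtubules, was at 1.27 against 0.487, a ratio of 2.61 (2.34 to 2.91).

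Prophase was compared as L/Z/eP against pL. Aurkb, Plk1 and Incenp were at least 2-fold lower (log2 -1.65, -1.24 and -1.01), 3 of 10 beside 10.5% of all genes, and 0 were 2-fold higher beside 13.3%. Aurkc, at log2 0.61 on this scale, was 3.56-fold (2.38 to 5.46) higher by the plain ratio. The plain ratio was below 1 beyond counting error also for Plk4, Mad2l1 and Ttk, above 1 also for Bub1, and not apart from 1 for Aurka and Bub1b. The median log2 ratio was -0.49, against -0.02 for all genes and -0.21 for the pathway list, of which 9 were 2-fold lower and 3 higher. Cenpa, the centromeric histone, was lowest of these at 0.146 against 1.31, followed by Ube2c, a ubiquitin-conjugating enzyme of the anaphase-promoting complex, at 0.209 against 0.662. Fbxo43, an inhibitor of that complex in meiosis, was at 1.02 in L/Z/eP against 0.0515 in pL, a ratio of 19.8 (15.3 to 25.9), and Cenpc1, of the inner kinetochore, at 1.45 against 0.564.

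From L/Z/eP to D, 0 of 10 genes differed 2-fold in either direction on the scale with 0.1 added, beside 5.69% of all genes higher and 0.393% lower, and 0 of 67 pathway genes did. Bub1 came closest, at log2 -0.60, followed by Plk1 at 0.54, and by the plain ratio Plk1 was 2.1-fold (1.6 to 2.76) higher in D. From D to RS all 10 log2 ratios were below 0, as were 59 of 67 pathway genes and 63.0% of all genes. Only Incenp was at least 2-fold lower (log2 -1.05), 1 of 10 beside 3.34% of all genes, and 0 were higher beside 10.6%. Centring on the median log2 ratio of all genes tested ended the call of Incenp. By the plain ratio, Aurkb was lower by 3.14-fold (2.22 to 4.5), Aurkc by 2.32-fold (1.7 to 3.19) and Ttk by 2.19-fold (1.91 to 2.52). On the log2 scale the next were Ttk at -0.88, Bub1b at -0.64 and Aurkb at -0.63, while the intervals of Aurka and Plk1 held a ratio of 1. The median was -0.53 for the 10 genes, -0.58 for the pathway list and -0.17 for all genes.

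In the pathway list, 5 genes were at least 2-fold lower in RS than in D and 2 higher. Ndc80, the outer kinetochore subunit, was at 0.298 in RS against 0.845 in D, and Fbxo43 at 0.571 against 1.47. Ube2c was higher, at 1.08 against 0.421, as was Mad2l1bp, which encodes a protein that removes MAD2 from checkpoint complexes, at 0.509 against 0.187. The partner thus stood 2.73-fold (2.33 to 3.21) higher in RS while Mad2l1 itself stood 1.69-fold (1.45 to 1.97) lower.

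The genotypes were compared as SpG Nfya-CKO against undiff. SpG. Bub1b and Ttk were higher in the spermatogonia of the library labelled Nfya-CKO than in any other population. This held for 2 of 10 genes, beside 11.6% of all genes and 15 of 67 pathway genes (22.4%). Bub1b was at 0.949 (0.882 to 1.02), against 0.396 (0.356 to 0.44) in undiff. SpG, 2.4-fold (2.11 to 2.73) higher. Ttk was at 1.15 (1.07 to 1.23) against 0.653 (0.601 to 0.709), 1.76-fold (1.58 to 1.95) higher. Both also stood above diff. SpG, Bub1b by 1.41-fold (1.23 to 1.62) and Ttk by 1.27-fold (1.13 to 1.44). In diff. SpG, 144 cells carried the barcode of a SpG Nfya-CKO cell, and their part in these ratios was not tested. Other somatic cells, mostly of the same library, held 0.314 of Bub1b and 0.291 of Ttk.

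Aurkb and Aurkc were lower. Aurkb was at 0.192 (0.162 to 0.225) in SpG Nfya-CKO and 0.366 (0.328 to 0.408) in undiff. SpG, lower by 1.91-fold (1.57 to 2.34). Aurkc was at 0.0197 (0.0111 to 0.0323) against 0.062 (0.0467 to 0.0807), lower by 3.15-fold (1.77 to 5.95), at a level that the added 0.1 leaves with a log2 ratio of -0.44. Mad2l1 was at 0.559 (0.508 to 0.614) against 0.876 (0.816 to 0.94), lower by 1.57-fold (1.39 to 1.77), but it was 1.34-fold (1.13 to 1.6) higher than in diff. SpG. Incenp, at 1.4 (1.32 to 1.49) against 1.62 (1.54 to 1.71), was lower by 1.16-fold (1.07 to 1.25), while its ratio to diff. SpG, 1.03 (0.932 to 1.14), held 1.

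The remaining genes were higher than in undiff. SpG or not apart from it. Plk1 was 1.35-fold (1.07 to 1.71) and Bub1 1.16-fold (1.04 to 1.3) higher than in undiff. SpG, and both were lower than in diff. SpG (0.579 and 0.624 times its level). For Aurka, the ratio of 0.861 (0.704 to 1.05), and for Plk4, that of 0.913 (0.799 to 1.04), were not apart from 1, but against diff. SpG both were lower, at 0.572 (0.462 to 0.709) and 0.676 (0.584 to 0.783). By the 2-fold count, 1 gene was higher, Bub1b with a log2 ratio of 1.08, beside 4.09% of all genes, and 0 were lower beside 3.08%, Aurkc falling short on the scale with 0.1 added. The median log2 ratio was -0.13, against 0.01 for all genes.

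Of the 67 pathway genes, 0 were 2-fold higher in SpG Nfya-CKO and 2 lower, with a median log2 ratio of 0.13. Nek2, a centrosomal kinase that separates centrosomes, was at 0.389 against 1.02, a ratio of 0.382 (0.334 to 0.435), and Ube2c at 0.179 against 0.476, a ratio of 0.377 (0.309 to 0.457). The sum of 5 proliferation markers was 5.34 in SpG Nfya-CKO and 8.01 in undiff. SpG. Among them, Top2a was at 1.98 against 3.34, Mki67 at 1.33 against 1.79, Ccnb1 at 0.476 against 0.95 and Cdk1 at 0.637 against 0.644. The Leydig cell RNA, the Clu level and the age of SpG Nfya-CKO moved with the genotype. So did its median depth, of 18361 UMIs per cell against 9290 in undiff. SpG. The Cre knock-in did too, since only 102 of the 1292 cells of undiff. SpG came from Cre/+ mice. The part of each of these in the differences was not tested.

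**Figure D3:**
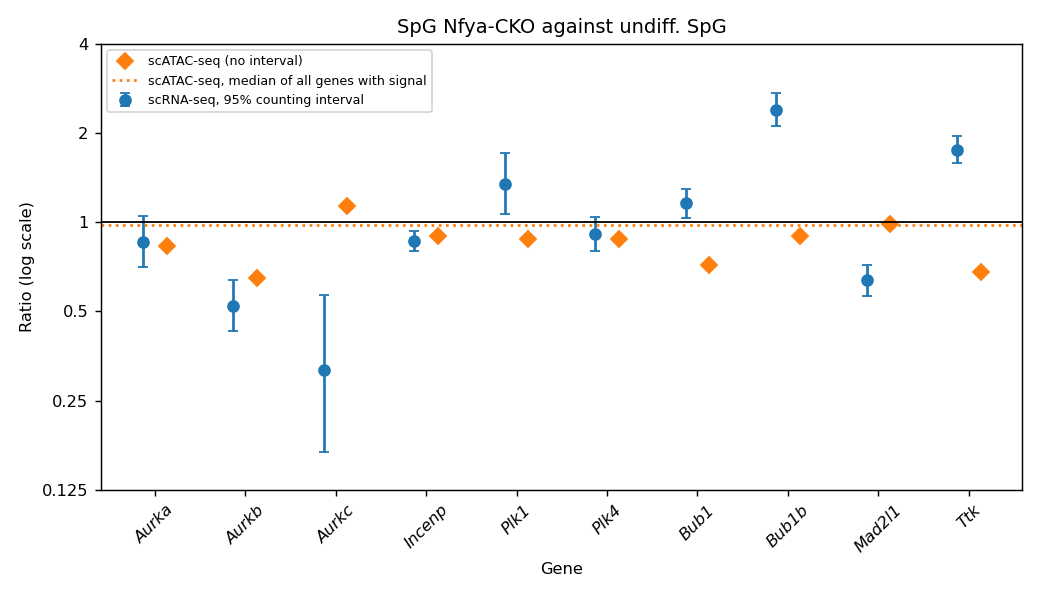
Ratio of SpG Nfya-CKO to undiff. SpG for each gene on a log axis, for scRNA-seq (circles, bars for the 95% counting interval) and scATAC-seq (diamonds), with the median scATAC-seq ratio of all genes as a dotted line. Bub1b and Ttk lie above 1 in RNA and below 1 in scATAC-seq, and Aurkc lies below 1 in RNA and above 1 in scATAC-seq. Scaled without mitochondrial genes, the scATAC-seq ratio of Bub1b is 0.991.

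Accessible chromatin was read from the scATAC-seq matrix, with values scaled to a sum of 1000000 per population. The depth behind a gene's value is unknown, so these values have no interval. The methods define promoter accessibility by coverage close to the start site, but whether this matrix counts that stretch is not stated. In SpG Nfya-CKO, 9 of 10 genes had a lower value than in undiff. SpG, all but Aurkc, beside 52.6% of the 29939 nuclear genes with signal in both populations. Of the 68 pathway genes, 60 had a lower value. The lowest ratio was that of Aurkb, at 17.2 against 26.5 per 1000000 and a ratio of 0.649, so that Aurkb was lower in both RNA and accessibility. The mean enrichment of fragments at transcription start sites, a measure of library quality, was 7.995 in SpG Nfya-CKO, the lowest of the 13 populations, against 12.7 in undiff. SpG, and its part in the scATAC-seq differences was not tested.

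Ttk was at 25.4 against 37.5 per 1000000, a ratio of 0.677, opposite in direction to its RNA. For Bub1 the values were 16.5 against 23, a ratio of 0.716, also opposite to its RNA. Bub1b, the gene with the largest RNA ratio, was at 26 against 28.9, a ratio of 0.901. The ratio was 0.831 for Aurka, 0.876 for Plk4, 0.879 for Plk1, 0.898 for Incenp and 0.988 for Mad2l1, and Aurkc was higher at 11.5 against 10.2, a ratio of 1.13. The median was 0.878 for the 10 genes, 0.754 for the pathway list and 0.978 for all genes.

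Genes of high signal in undiff. SpG had lower ratios in general. That signal is also the denominator of the ratio, so noise in it alone lowers the ratios of genes ranked high by it. The size of this effect was not tested. With all genes ranked by signal in undiff. SpG, Ttk stood in a decile with a median ratio of 0.828, Aurkb and Bub1 in one of 0.954, and Bub1b, Plk1, Incenp and Aurka in one of 0.876. Plk4 and Mad2l1 shared the decile of Ttk, and that of Aurkc had a median of 1.21. Against these medians, Mad2l1 (0.988) and Plk4 (0.876) lay above, Bub1b, Plk1 and Incenp close to them, and Aurka, Aurkc, Ttk, Bub1 and Aurkb below. None of these ratios has an interval, so the placing is by value alone. Mitochondrial genes held 46% of the signal in SpG Nfya-CKO and 40.6% in undiff. SpG. Without them, 8 of 10 genes were lower, beside 41.3% of all genes, with a median of 0.965 against 1.08, and Mad2l1 turned to a higher value. On that scaling Bub1b had a ratio of 0.991, close to 1. The values of SpG Nfya-CKO fit 285 cells in the steps of the matrix, whereas 470 cells carry that name in the deposited cell table.

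Across the germ cell populations, mitochondrial genes took between 31.2% (pL) and 63.8% (L/Z/eP) of the signal, so levels are given per 1000000 of nuclear signal. The range over these populations was narrower than that of RNA in all 10 genes, beside 93.5% of all genes tested, and again in all 10 without ES, whose column fits 106 cells, beside 95.3%. Aurkb was highest in pL in both assays, at 54.3 per 1000000 in pL, 44.7 in undiff. SpG and 40 in RS, a range of 1.36-fold with ES set aside, against the far wider range of its RNA. Aurka reached 95 in D and 93.6 in mP/lP from 56.5 in undiff. SpG, following its RNA in direction. Incenp was at 57.5 in undiff. SpG and 86.7 in RS, where its RNA was near its lowest.

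Among the 9 germ cell populations, Aurkc had its highest accessibility in undiff. SpG, at 17.1 per 1000000, and its lowest in diff. SpG, at 5.25, with 6.13 in pL, 12.7 in mP/lP and 14.1 in RS, while SpG Nfya-CKO was higher, at 21.4, and Sertoli cells lower, at 3.18. Over the same 9 populations, Ttk ranged from 60.9 in pL to 82.8 in L/Z/eP, and Bub1 from 38.8 in undiff. SpG to 53.5 in diff. SpG. Bub1b was highest in undiff. SpG, at 48.7, and Plk1 and Mad2l1 reached 118 and 116 in ES. For Aurka, Aurkb, Bub1, Ttk and Incenp the value of SpG Nfya-CKO (51.7, 31.9, 30.5, 47 and 56.8) lay below all 9 germ cell populations. This held for 5 of 10 genes, beside 20.1% of all genes and 35 of 68 pathway genes (51.5%). The values of the 5 genes have no interval, and the margin was small for Aurka (51.66 against 52.05 in ES) and Incenp (56.75 against 57.45 in undiff. SpG). The enrichment at start sites of SpG Nfya-CKO also lay below that of these populations (8.67 in RS to 16 in eL/L/Z), and its part was not tested.

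**Figure D4:**
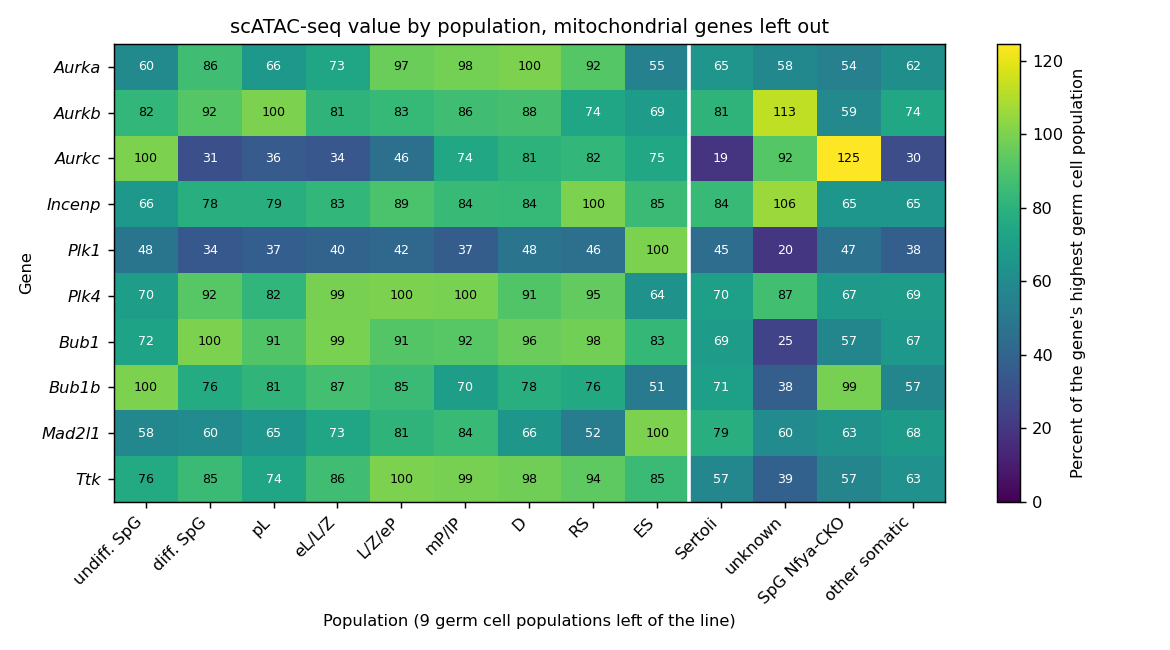
scATAC-seq value of each gene in 13 populations, scaled without mitochondrial genes and given as a percentage of that gene's highest germ cell population. Over the germ cell populations the rows are flatter than in the RNA map, with the widest range in Aurkc, and Aurkb, Bub1 and Ttk are lower in SpG Nfya-CKO than in undiff. SpG.

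The genes whose RNA pattern over the 9 germ cell populations was most like each of the 10 were ranked by Pearson's r of log2 values among 10060 genes whose mean reached 0.2 per 10000. With 9 points that share libraries, such values describe and do not test. For Incenp they were Gjc1 (r = 0.994), Kif18b (r = 0.993) and Gclc (r = 0.992), Kif18b being a mitotic kinesin, and 306 genes passed an r of 0.95. For Aurkb the closest were Klf10 (r = 0.987), Cdkn2a (r = 0.984) and Bcl7c (r = 0.984), and 278 genes passed an r of 0.95. Plk4 was closest to Stxbp5 (r = 0.991), Topbp1 (r = 0.989) and Ubr3 (r = 0.984), of which Topbp1 encodes a replication stress protein. Bub1 came next to CT030190.1 (r = 0.972), Mki67 (r = 0.971), the proliferation marker, and Dmxl1 (r = 0.968).

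Ttk was most like Znhit6 (r = 0.985), Rxrb (r = 0.982) and Gm28285 (r = 0.981), and Mad2l1 like Ptges3 (r = 0.993), Rpl27 (r = 0.989) and Skp1a (r = 0.987). Aurkc matched Wbp4 (r = 0.979), Ddx25 (r = 0.977), a testis RNA helicase, and Arhgef10 (r = 0.976). The other patterns had fewer close matches. Aurka reached Fancl (r = 0.923), Reep4 (r = 0.902) and Cds1 (r = 0.890), Bub1b Orc5 (r = 0.936), Upf1 (r = 0.931) and Nap1l4 (r = 0.908), and Plk1 Epcam (r = 0.954), Prkag2 (r = 0.912) and Grb10 (r = 0.907). By rank correlation, 4 of these 30 pairs remained among the closest 3 of their gene.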

How the data were processed

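Mouse testis nuclei were profiled by simultaneous scRNA-seq and scATAC-seq, with 1 library per condition and assay. Per the labels and the methods, the authors aligned RNA reads with STAR 2.7.10b and ATAC fragments with BWA 0.7.12 to mm10, shifted ATAC ends with bedtools 2.27.1, collapsed reads of the same UMI and coordinate, and filtered cells with Seurat 5.2.1 (at least 500 genes, under 5% mitochondrial UMIs), a doublet caller and ArchR 1.0.3 (at least 1000 fragments, TSS score of at least 4). The deposited cell tables give the count of UMIs and of fragments per cell, without normalization, and the TSS enrichment, a ratio from ArchR that the authors computed. The deposited matrices give, per population, the natural log of 1 plus a mean that sums to 10000, as the values themselves show. In 11 of 13 RNA columns the smallest value equals 1 UMI of the deepest cell divided over all cells. Population codes of the tables were read as the stages named in the methods.

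Values were turned back with the exponential. A counting interval treats the mean as a Poisson count of UMIs, each worth the mean of 10000 over the cells' depths divided by the number of cells, and a ratio takes the exact binomial interval. Both were tested on simulated counts, the ratio for SpG Nfya-CKO against undiff. SpG only. These counts were drawn from the same Poisson model, with 1 rate per population. Further variation between cells or libraries was therefore not tested. Library totals ran from 30227701 UMIs (17 dpp) to 64967271 UMIs (Cre/+). Ratios used a pseudocount of 0.1, counts a 2-fold difference, and the gene filter a mean of at least 0.05. Named genes were the 10 genes, the 3 closest in pattern to each, and the 2 pathway genes with the largest difference in each direction past 2-fold. Meiosin, a marker, had no row under that name. The genes and lists were chosen with earlier results of these data known. 24 further columns of the deposited cell tables were not used. Python 3.11.15, numpy 2.4.6, pandas 2.3.3, scipy 1.17.1 and matplotlib 3.10.9 were used.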

Additional observations from a re-analysis of the deposited data

How the results depend on the processing

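Of 75 checks of 13 counts and medians, 54 left the value within 1.5 times the reported count or, for the scATAC-seq median, within the spread of the 10 genes, and 21 moved it. Most of these are counts past a threshold, which have no direction to turn. Where a value moved or turned, the cause was not tested unless the setting itself changes the size counted. With a 1.5-fold threshold, the number of genes higher in pL than in undiff. SpG was 2, that higher in L/Z/eP than in pL 1 and lower 5, that lower in D than in L/Z/eP 1, that lower in RS than in D 4, and in SpG Nfya-CKO 2 were higher and 1 lower. With a 3-fold threshold, 1 was lower in L/Z/eP, 0 lower in RS and 0 higher in SpG Nfya-CKO. A pseudocount of 0.02 gave 1 higher in L/Z/eP (Aurkc), 3 lower in RS and 1 lower in SpG Nfya-CKO, and a pseudocount of 0.5 gave 0 lower in L/Z/eP, 0 lower in RS and 0 higher in SpG Nfya-CKO. Centring on the median of all genes left 0 lower in RS. With diff. SpG as the control, or diff. and undiff. SpG weighted by cells, 0 genes were higher in SpG Nfya-CKO, and the median scATAC-seq ratio with diff. SpG as the control was 0.651. That control also turned the log2 ratio of 4 of the 10 genes, to -0.57 for Plk1, -0.62 for Bub1, 0.35 for Mad2l1 and 0.041 for Incenp. Among populations of at least 1000 cells, which leaves out diff. SpG, 5 genes were highest in pL. Without the filter on low genes, 4.05% of all genes were 2-fold apart between SpG Nfya-CKO and undiff. SpG, against 7.17% with it. No paired analysis was possible because each condition is 1 library and the columns pool libraries. Low UMI counts limit Aurkc, and ES and unknown rest on few cells in scATAC-seq. Leaving out a library or the cells with shared barcodes could not be run.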

Other observations

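Among the 10 genes themselves, the patterns over the 9 germ cell populations ran together for some and apart for others. Pearson's r of log2 levels was 0.949 between Incenp and Ttk, 0.938 between Plk4 and Ttk, and 0.904 between Aurkb and its scaffold Incenp. Between Aurkb and Aurkc it was -0.57, between Aurkc and Plk1 -0.66, and between Aurkc and Incenp -0.33. These are descriptions over 9 populations that share libraries, with no test. Within each gene, r between the RNA level and the scATAC-seq value per nuclear signal was 0.751 for Aurka and 0.676 for Aurkb, -0.73 for Incenp, and between -0.49 (Ttk) and 0.49 (Bub1) for the other 7 genes. With mitochondrial genes kept in the scaling it was 0.404 for Aurka, 0.832 for Aurkb and 0.0016 for Incenp, so these values depend on the scaling.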
